A study of Mus musculus with 16 samples.

Results

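The control-mimic libraries describe what mouse CD4+ T cells expressed when they carried no test microRNA. They are replicates 2, 3 and 4 of the control mimic group, 3 of the 16 libraries of the study, and were chosen by their titles. Control replicate 1 was left out because it held 51474 gene reads against 7272860 to 11367506 in the others. All 23337 gene symbols of the deposited tables were considered.

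The cells came from C57BL/6 mice of the genotype Dgcr8f/f Tbet-/- CD4-cre. Dgcr8, a partner of the nuclease Drosha that is needed to make most microRNAs, was therefore deleted only where Cre was active under the Cd4 promoter. T-bet, the Th1 factor encoded by Tbx21, was absent from the germline. A YFP reporter at the Rosa locus marked the cells that were sorted, and 150000 to 800000 live CD4+ YFP+ cells were taken per library. Cells from spleen and lymph nodes, enriched on CD4 beads, were stimulated through CD3 and CD28 for 3 days with 10 U/ml of IL-4 and rested for 2 days in 20 U/ml of IL-2. They were electroporated on days 1 and 4 with 500 nM of a control mimic, a short double-stranded RNA. The other groups of the study received miR-23a, miR-24 or miR-27a in its place. All 4 groups share the genotype, so no library shows the same cells with Dgcr8 or T-bet. The series text speaks of biological replicates without tying libraries to mice, and no comparison between groups was made here. The spread given is that between these 3 libraries.

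Naive CD4 T cells that meet antigen in the presence of IL-4 signal through the IL-4 receptor and STAT6, switch on GATA3 and become T helper 2 (Th2) cells. These cells are known for secreting IL-4, IL-5 and IL-13 in allergy and in worm infection. T-bet opposes this programme, and FOXP3 directs that of regulatory T cells.

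Levels are given as CPM, read counts scaled to library size with TMM factors, in the order of replicates 2, 3 and 4. Genes were compared with each other only per length, as RPKM (CPM per kilobase of merged exons), with ranks among 20243 protein-coding genes. A gene was taken as expressed when it had at least 1 CPM in each of the 3 libraries. That level was reached by 10745 symbols (46.0%), of which 10130 were protein-coding (50.0% of those). For a gene without a read, 3 reads correspond to 0.280, 0.256 and 0.427 CPM, and this floor covers counting error only. The 100 most abundant genes took 24.9%, 23.8% and 26.0% of the gene reads.

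Replicate 4 stood apart from the other control libraries before any gene group was considered. Xist, the RNA that coats the inactive X chromosome of female cells, had 112, 104 and 87835 reads. The Y-linked gene Ddx3y had 1981, 1990 and 10 reads, and Eif2s3y had 1005, 1576 and 0. In the 15 deeper libraries of the study, Xist lay between 5132 and 12077 CPM (of gene reads) in the 4 libraries numbered 4 and between 7.07 and 54.4 in the other 11. The labels give no sex, and these genes were named after their values were seen. Among 5824 protein-coding genes expressed with a mean of at least 20 CPM, 145 were at least 2-fold above and 283 at least 2-fold below both other libraries in replicate 4. The same counts were 105 and 139 for replicate 2 and 59 and 24 for replicate 3. Across the 10130 expressed protein-coding genes, Pearson's r of log2 CPM was 0.943 for replicates 2 and 3. It was 0.917 for replicates 2 and 4 and 0.935 for replicates 3 and 4. Every pair differed by more than counting noise, for which chi-square per degree of freedom is near 1, with 60.8, 133 and 92.8 for the same pairs. Chi-square was taken over 12095, 11762 and 11907 symbols of any kind. Xist and the ribosomal RNA precursor Rn45s are among them, and their part in these values was not tested.

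Genes of the T cell receptor and its coreceptors were expressed throughout. Cd4, the coreceptor on which the cells were selected and sorted, was at 517, 570 and 486 CPM and ranked 175th among protein-coding genes. Cd3e, a signalling chain of the T cell receptor, was at 971, 1027 and 640 CPM (rank 75). Both were present at high levels in all 3 libraries. All 32 members of a list of T cell receptor, coreceptor and proximal signalling genes were expressed, with a median of 95.02 CPM. The share over all protein-coding genes was 50.0%. The costimulatory receptor Cd28 was the highest of them per length, at 407, 347 and 335 RPKM, and the ranges of Cd28 and Cd3e (157 to 252 RPKM) did not overlap. Cd3g was at 209, 287 and 252 CPM, and Cd3d at 67.4, 124 and 84.3 CPM. The adaptor Lcp2 (SLP-76) was at 666, 703 and 749 CPM. The kinases Lck and Zap70 were lower per length in each library (means of 17.3 and 7.59 RPKM against 158 RPKM for Lcp2), at 73.9, 52.2 and 25.6 CPM and at 32.6, 22.2 and 13.4 CPM. Lck, Zap70, Cd247 (155, 103 and 61.4 CPM) and Cd27 (117, 47.8 and 20.1 CPM) shared one order, with replicate 2 highest and replicate 4 lowest. Of the 32 genes, 17 (53.1%) had their lowest value in replicate 4, where 41.3% of all 10745 expressed symbols had theirs.

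The genes named in the genotype were read in each library. Dgcr8 was at 46.4, 32.3 and 30.3 CPM (498, 378 and 213 reads) and ranked 5800th per length. The counts cover the whole gene, and Cre removes only the part between the loxP sites, so this level does not check the deletion. Tbx21 had 13, 6 and 12 reads (1.21, 0.512 and 1.71 CPM), close to the threshold for expression and on both sides of it.

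Markers of other cell types were mostly below the threshold. Over 76 measured markers of B, CD8 T, NK, myeloid, dendritic, γδ, mast, red and stromal cells, 16 were expressed. This is 21.1%, against 46.0% of all symbols and 50.0% of protein-coding genes. Of the 76, 33 had no read at all, as had 5990 of all 20243 protein-coding genes. The summed level of the 76 markers was 400, 305 and 238 CPM. Defining genes with 0 reads in the 3 libraries included Pax5 of B cells, Lyz2 and Cd14 of myeloid cells, S100a8 and S100a9 of granulocytes, Ncr1 of NK cells, Clec9a of dendritic cells, Col1a1 of fibroblasts and Cdh5 of endothelium. Other members of the same lists were present. The NK list summed to 61.4, 43.3 and 7.55 CPM, nearly all from Eomes (59.9, 5.04 and 1.57 CPM) and Gzma (0.933, 38.3 and 5.98 CPM), which T cells can also express. In the dendritic list 4 of 9 genes were expressed, Tcf4 (19.5, 27.7 and 44.2 CPM), Batf3 (24.4, 15.2 and 33.6 CPM), Xcr1 (7.93, 11.2 and 11.3 CPM) and Siglech (1.31, 1.54 and 1.14 CPM). None of the 8 measured genes of the B cell list reached 1 CPM in all 3 libraries. However, 6 of them reached it in 1 or 2 libraries, and 1 had no read in any. The B cell list summed to 4.38, 11.8 and 7.69 CPM, and its members Ighm and Igkc were not measured. The part of other cells in the results was not tested. Pecam1, an adhesion molecule of endothelium and leukocytes, had 116, 68.4 and 54.3 CPM. Cd8a had 3.73, 2.73 and 6.12 CPM and Cd8b1 26.5, 10.6 and 11.3 CPM. Per length, Cd4 exceeded Cd8a by 125, 188 and 71.6 times in the 3 libraries. The class II gene H2-DMa, at 81.4, 12.4 and 5.70 CPM, was the one member of the class II list above 25 CPM in any library, while Cd74 had 8.95, 22.0 and 8.83 CPM. In such bulk libraries, fewer cells of a type and less RNA per cell cannot be told apart.

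Transcription factors and surface receptors of the Th2 programme were expressed. Of 44 measured members of the Th2 list, 32 (72.7%) were expressed, against 50.0% of protein-coding genes, and the lists of 2 other lineages reached higher shares. Gata3, the factor that sets the Th2 fate, was at 172, 429 and 289 CPM (rank 391), lowest in replicate 2. Il4ra, the signalling chain of the IL-4 receptor, was at 669, 723 and 297 CPM (rank 271), lowest in replicate 4. Ccr4, a chemokine receptor of Th2 and skin-homing cells, was at 712, 703 and 490 CPM (rank 86). All 5 markers fixed for the identity check, Cd4, Cd3e, Gata3, Il4ra and Ccr4, were thus well above the threshold in each library. Maf, which drives Il4 transcription, was at 253, 519 and 462 CPM, and Gfi1, a repressor needed for Th2 cell growth, at 137, 238 and 206 CPM. Pparg, a nuclear receptor of Th2 cells, ranged from 46.4 over 135 to 247 CPM. Stat6, which carries the IL-4 signal to the nucleus, was at 101, 78.0 and 43.9 CPM. Il1rl1, the IL-33 receptor, was low at 8.49, 21.8 and 18.2 CPM, and Ccr8 varied from 0.570 CPM in replicate 4 to 18.0 CPM in replicate 3. Gpr44, the prostaglandin D2 receptor known as CRTH2, had no reads.

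The Th2 cytokine genes themselves did not stand at equal levels. Il4, Il13 and Il5 lie together on chromosome 11 in GRCm38, Il4 at chr11:53602982-53618669, Il13 at chr11:53631324-53634702 and Il5 at chr11:53720794-53725106. Il4 was the steadiest of them, at 29.2, 23.7 and 26.2 RPKM (CV 10.3%, where counting alone gives 5.75%). Il13 was at 29.6, 95.8 and 97.3 RPKM, so it equalled Il4 in replicate 2 and exceeded it by 4.04 and 3.71 times in replicates 3 and 4. Il5 had 25, 7 and 25 reads (1.52, 0.389 and 2.32 RPKM), and its range did not overlap that of Il4. Il9, another type 2 cytokine, had 0.466, 3.76 and 37.2 CPM and came almost wholly from replicate 4. Il31 and Il3 had no reads.

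Il10 had the highest level per length of the interleukin genes in each library, though its range overlapped that of Il24 (61.7 to 170 RPKM). It encodes an inhibitory cytokine that Th2 cells also make, and was at 147, 319 and 214 CPM. Per length it exceeded Il4 by 3.84, 10.3 and 6.21 times. Il24, a member of the IL-10 family encoded on the same stretch of chromosome 1 (chr1:130882074-130887454, against chr1:131019845-131024974 for Il10), was at 143, 235 and 85.5 CPM. Il19 and Il20 lie between them. Il19 was at 15.3, 22.0 and 13.8 CPM, and Il20 had no reads. Among 54 measured cytokine genes, 21 were expressed (38.9%, against 50.0% of protein-coding genes). Another 27 stayed under 1 CPM in all 3 libraries, and 13 of these had no read. Penk, the precursor of enkephalin opioid peptides, had the largest range of those expressed: 13.8, 703 and 492 CPM. Its mean of 403 ± 353 CPM (SD, n = 3) describes none of the libraries and is 249 CPM without replicate 3. Il21, at 8.95, 76.7 and 93.4 CPM, and the IL-1 receptors Il1r1 (4.76, 46.4 and 105 CPM) and Il1r2 (0.746, 19.6 and 18.7 CPM) were likewise lowest in replicate 2. Lif, at 104, 82.8 and 90.3 CPM, and Flt3l, at 64.6, 55.9 and 43.0 CPM, showed no such gap.

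**Figure D1:**
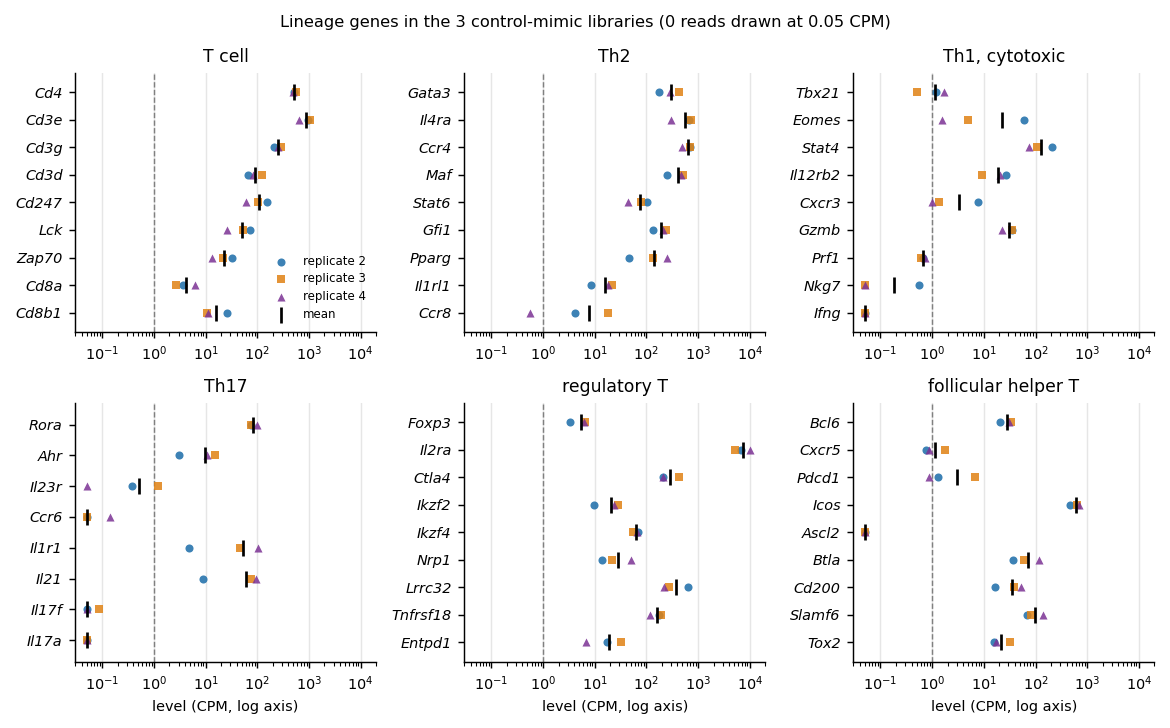
Levels in CPM (log axis) of 8 or 9 genes for each of 6 T cell programmes; points are the 3 control-mimic libraries, the black bar is their mean, and the dashed line marks 1 CPM, with genes without reads drawn at the left edge. Gata3, Il4ra and Ccr4 lie above 100 CPM in every library, whereas Foxp3 lies below 10 CPM and Ifng and Il17a have no reads.

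Several defining genes of the other helper programmes were low or absent, while other members of their lists were expressed. Ifng, the signature cytokine of Th1 cells, and Il17a, that of Th17 cells, had 0 reads in each library. Il17f, Il22 and Ccl20 together had 1 read. The IL-23 receptor gene Il23r was at 0.373, 1.196 and 0 CPM. Other genes drawn with the Th17 programme were expressed, among them Rora at 76.1, 76.9 and 97.4 CPM and Il21 and Il1r1 as given above. Over the Th17 list, 11 of 18 members were expressed, with a median of 48.3 CPM. Foxp3, the regulatory T cell factor, was detected at 3.36, 6.41 and 6.27 CPM. Per length, Gata3 exceeded Foxp3 by 59.0, 77.1 and 53.0 times. Bcl6, the follicular helper factor, was at 20.99, 34.0 and 31.1 CPM, while its partner genes Cxcr5 (0.746, 1.79 and 0.855 CPM) and Ascl2 (no reads) were not expressed.

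Counts over whole lists did not set Th2 genes apart, since the regulatory and follicular helper lists lay above the 72.7% of the Th2 list and the Th1 list at the protein-coding share of 50.0%. The share of members expressed was 19 of 38 for Th1 and cytotoxic genes (50.0%), 11 of 18 for Th17 (61.1%), 17 of 18 for regulatory T (94.4%) and 10 of 13 for follicular helper T (76.9%). Members that activated T cells of several kinds use are among those counted, such as Il2ra, Ctla4 (208, 435 and 206 CPM), Icos (468, 646 and 705 CPM) and Irf4 (1031, 931 and 1341 CPM). Among the Th1 and cytotoxic genes, Id2, an inhibitor of E proteins (117, 220 and 101 CPM), and the IL-18 receptor chain Il18r1 (140, 145 and 421 CPM) were among the 3 highest per length. Stat4, which carries the IL-12 signal, was at 204, 105 and 73.8 CPM. Perforin (Prf1) was at 0.653, 0.598 and 0.712 CPM and Nkg7 at 0.560, 0 and 0 CPM. Eomes, the T-box factor related to T-bet, had 642, 59 and 11 reads (59.9, 5.04 and 1.57 CPM), so its mean rests on replicate 2, as that of Gzma rests on replicate 3. Gzmb was even, at 34.3, 34.3 and 22.9 CPM.

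The α chain of the IL-2 receptor was the highest of the cytokine receptor genes. Il2ra (CD25) was at 6851, 5280 and 10345 CPM and ranked 4th, 7th and 4th of all protein-coding genes per length. Within the α chains that pair with the common γ chain, Il2ra took 82.8%, 73.4% and 86.2% of the summed RPKM. Il7r followed with 8.27%, 13.8% and 10.4%, and Il4ra with 7.70%, 9.58% and 2.35%. The shared chain Il2rg was at 633, 645 and 441 CPM and Il2rb at 697, 344 and 216 CPM. Il9r, at 0.933, 0.342 and 0 CPM, and Il13ra1, at 0, 0.171 and 0 CPM, were not expressed. Of 55 measured interleukin and cytokine receptor genes, 39 were expressed (70.9%, against 50.0% of protein-coding genes) and 8 reached a mean of 50 RPKM. For scale, Maf at a mean of 49.9 RPKM ranked 701st of all 20243 protein-coding genes. The interferon receptor Ifnar1 was at 449, 372 and 480 CPM and the TGF-β receptor Tgfbr2 at 593, 731 and 552 CPM. Both chains of the interferon-γ receptor were present, Ifngr1 at 74.0, 59.3 and 56.4 CPM and Ifngr2 at 189, 160 and 73.2 CPM.

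**Figure D2:**
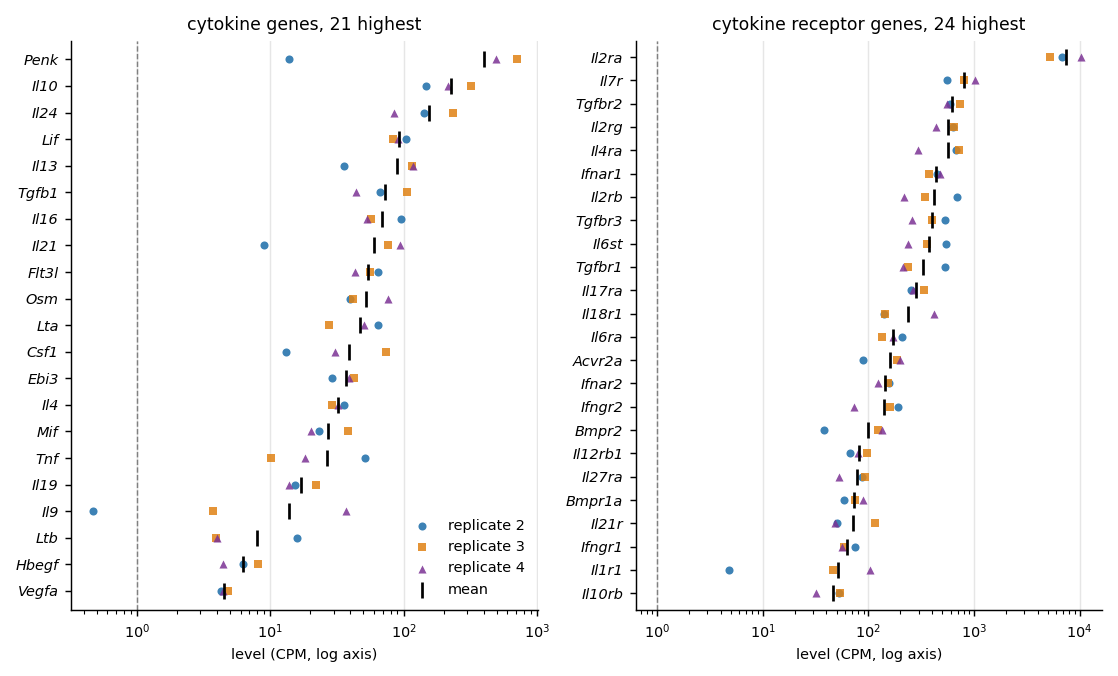
Levels in CPM (log axis) of the 21 highest cytokine genes (left) and the 24 highest cytokine receptor genes (right), by mean over the 3 control-mimic libraries; points are libraries, black bars means, the dashed line 1 CPM. Penk spans 13.8 to 703 CPM and Il9 0.466 to 37.2 CPM, while Il2ra lies above every other receptor in each library.

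Downstream of these receptors, 7 of 7 STAT genes and all 19 measured kinases and feedback regulators were expressed, against 50.0% of protein-coding genes. Stat6 took 8.14%, 10.3% and 7.52% of the summed STAT level per length, and Stat4 18.7%, 15.7% and 14.4%. Every STAT gene was highest in replicate 2 and lowest in replicate 4, where 33.9% and 41.3% of all expressed symbols were, and the summed level was 1809, 1113 and 856 CPM. Among the Janus kinases, Jak1 and Jak2 together made up most of the level, at 683, 687 and 721 CPM and at 383, 772 and 680 CPM. Jak3, the kinase bound to the common γ chain, was at 85.1, 64.2 and 38.6 CPM. Cish (488, 279 and 185 CPM) and Socs2 (534, 358 and 701 CPM), which STAT5 induces and which damp cytokine signals, had the highest means per length of the SOCS family. Socs1 and Socs3 were at 37.0, 30.3 and 33.9 CPM and 99.8, 87.5 and 110 CPM.

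Ccr4 and Ccr7 were the highest chemokine receptor genes per length. Ccr7, which guides T cells to lymph nodes, was at 912, 182 and 174 CPM, so that Ccr4 and Ccr7 exchanged places between replicate 2 and the others. Cxcr4 was at 31.2, 77.0 and 25.2 CPM and Cxcr6 at 13.0, 38.9 and 22.9 CPM. Cxcr3, the Th1 homing receptor and a target of T-bet, was at 7.74, 1.37 and 0.997 CPM. Of 24 chemokine ligand genes, 3 were expressed (12.5%, against 50.0% of protein-coding genes). These were Ccl5, Ccl9 and Ccl25, of 2.48 to 8.11 CPM in any library. Among 33 receptors for lipids, purines and other small ligands, 24 were expressed (72.7%, against 50.0% of protein-coding genes). Gpr132 was highest at 197, 239 and 180 CPM, followed per length by P2ry10 at 142, 87.4 and 131 CPM and the sphingosine receptor S1pr1 at 122, 98.7 and 97.7 CPM.

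Of 26 integrin genes, 15 were expressed (57.7%, near the 50.0% of protein-coding genes) and 7 had a mean of at least 50 RPKM. A mean of 49.9 RPKM, that of Maf, ranked 701st of all 20243 protein-coding genes. Itga4, the α4 chain that pairs with β1 or β7, was at 839, 2187 and 4053 CPM, with no 2 libraries within 1.5-fold. Itgb1 was at 644, 1036 and 818 CPM and Itgb7 at 254, 233 and 126 CPM. Itgal and Itgb2, which form LFA-1, were at 635, 449 and 452 CPM and at 318, 225 and 160 CPM. The αv chain Itgav was at 638, 488 and 654 CPM and the β3 chain Itgb3 at 800, 857 and 284 CPM. Among costimulatory and inhibitory receptors, 31 of 35 were expressed (88.6%, against 50.0% of protein-coding genes). After Cd28 and Icos, the highest per length were Ctla4, Tnfrsf18 (GITR; 176, 188 and 119 CPM) and Tnfrsf4 (OX40; 106, 163 and 70.1 CPM). Cd274 (PD-L1) was at 132, 212 and 372 CPM, whereas its receptor gene Pdcd1 (1.31, 6.83 and 0.855 CPM) and Lag3 (4.48, 4.36 and 2.85 CPM) were near the threshold.

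The transcription factors and their partners were 194 genes, drawn from 16 families and the Th2 list. Of these, 148 were expressed, where 50.0% of all protein-coding genes were, and 25 had a mean of at least 50 RPKM. Maf, just under that level at 49.9 RPKM, ranked 701st of all 20243 protein-coding genes. The chromatin protein Hmgb2 was highest (456, 445 and 688 RPKM). Epas1, which encodes the hypoxia factor HIF-2α, came next, at 1236, 1570 and 2037 CPM (289 ± 72.0 RPKM, SD, n = 3). Ikzf1, Hif1a, Tcf7 and Irf4 followed with means of 225 to 228 RPKM, and the ranges of these 4 and Epas1 all overlapped. Epas1 exceeded Hif1a by 1.31, 1.26 and 1.25 times per length. Gata3 was 16th in this order (43.3, 108 and 72.6 RPKM).

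Within families, 1 or 2 members carried most of the level. Gata3 made up 98.4%, 99.1% and 98.8% of the GATA family, and Gata2 and Gata6 had no reads. Ikzf1 made up 61.2%, 66.4% and 65.8% of the Ikaros family, with Ikzf3 (Aiolos) at 33.1%, 28.6% and 28.9%. Runx1 took 51.0%, 52.6% and 62.0% of the RUNX level, and Runx3, which T-bet works with in Th1 cells, 25.9%, 15.3% and 11.7%. In the NFAT family, which holds calcium-regulated factors such as Nfatc1 and the osmotic stress factor Nfat5, the shares differed between libraries. Nfat5 was first in each, with 27.3%, 46.0% and 63.3%, and Nfatc3 second, with 27.0%, 25.3% and 18.9%. Nfatc2 took 24.5%, 14.2% and 10.9% and Nfatc1 21.2%, 14.5% and 6.81%.

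Factors of resting T cells were present beside those of activation. Tcf7 was at 905, 582 and 304 CPM, Bach2 at 970, 537 and 468 CPM and Satb1, a chromatin organiser, at 2850, 2125 and 2772 CPM. All 21 measured genes of quiescence, memory and homing were expressed (median 341 CPM), against 50.0% of protein-coding genes. Among them were Il7r (558, 812 and 1024 CPM), Bcl2 (1269, 686 and 534 CPM) and Txnip (300, 762 and 571 CPM). Of these 21, 14 (66.7%) had their highest value in replicate 2, as did 33.9% of all expressed symbols. Klf2, which maintains quiescence and recirculation, was even at 58.9, 66.7 and 63.8 CPM.

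Immediate-early genes, which a T cell induces within minutes of a stimulus, were highest in replicate 3. Jun was at 62.8, 315 and 20.1 CPM, Fos at 8.67, 82.1 and 39.0 CPM, Fosb at 0.839, 43.9 and 15.1 CPM and Egr1 at 9.89, 101 and 48.4 CPM. Klf6, a zinc finger factor that such stimuli also induce, was at 465, 1208 and 668 CPM. Replicate 4 was the lowest for Jun, and replicate 2 for Fos, Fosb, Egr1 and Klf6. Of the 14 expressed AP-1 and BATF genes, 11 (78.6%) were highest in replicate 3, against 32.2% of all expressed symbols. The NR4A receptors, which report T cell receptor signalling, stayed low: Nr4a1 was at 0.933, 6.15 and 0.142 CPM. Rgs1, an activation-induced regulator of chemokine receptors, was at 94.95, 675 and 132 CPM, again highest in replicate 3.

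**Figure D3:**
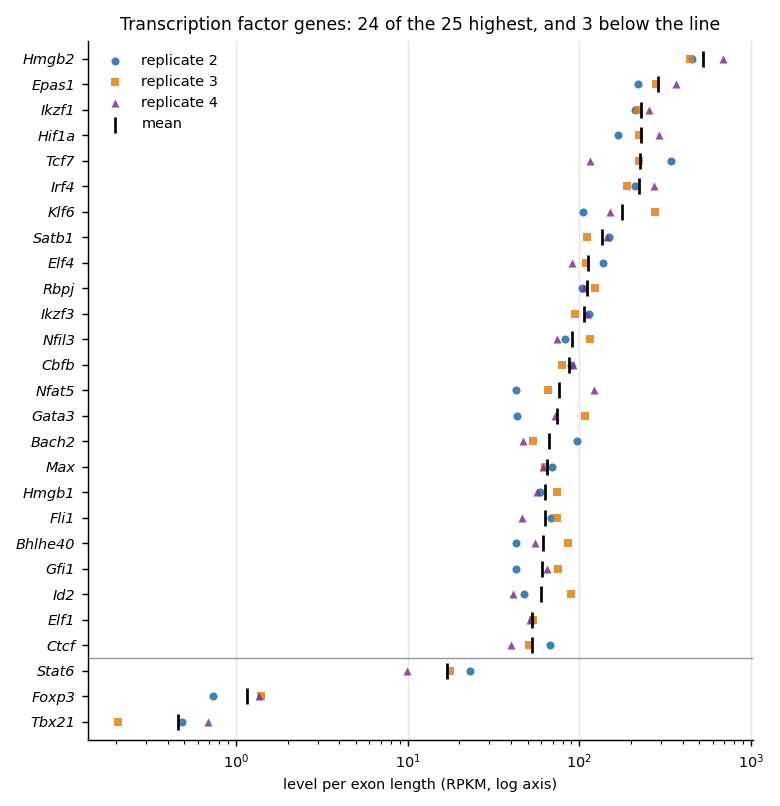
Levels per exon length in RPKM (log axis) of 24 of the 25 highest transcription factor genes and, below the line, of Stat6, Foxp3 and Tbx21; points are the 3 control-mimic libraries and black bars their means. Gata3 (mean 74.6 RPKM) lies far above Foxp3 (1.17) and Tbx21 (0.460) in every library.

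Genes of cell division were expressed almost without exception. Of 54 cell cycle genes, 52 were expressed (96.3%, against 50.0% of protein-coding genes), with a median of 146 CPM. Mki67, the proliferation marker Ki-67, was at 4261, 4674 and 14268 CPM, and Top2a, the mitotic topoisomerase, at 3427, 2529 and 4296 CPM. Mki67 and Cenpe (578, 675 and 1768 CPM) were at least 2-fold higher in replicate 4. Ube2c (320, 328 and 291 CPM), Tpx2 (332, 352 and 329 CPM) and Birc5 (137, 128 and 125 CPM) were not. The summed level of the whole list was 19336, 18591 and 31875 CPM. Of the 52 genes, 20 (38.5%) were highest in replicate 4, against 33.9% of all expressed symbols. In the same library 23 (44.2%) were lowest, against 41.3%. Over expressed protein-coding genes, the median log2 level of replicate 4 against the mean of the other 2 libraries was -0.22 in the shortest of 5 equal bins by exon length and 0.06 in the longest. For replicate 3 it was 0.23 and -0.15. The part of this trend in single genes was not tested. Pcna, a replication clamp, was at 324, 506 and 646 CPM, and the helicase gene Mcm6 at 318, 374 and 363 CPM. The D-type cyclin Ccnd2 was at 859, 1069 and 1286 CPM and Ccnd3 at 381, 124 and 67.4 CPM, in opposite orders of the libraries. Myc was at 65.7, 72.0 and 183 CPM. Mcl1 (691, 711 and 801 CPM) and Bcl2 were the highest survival genes per length. Bcl2l11, the death-promoting Bim, was at 918, 258 and 218 CPM and highest in replicate 2 like Bcl2.

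In several of the glycolysis enzyme and transporter families compared, 1 member made up nearly all of the level. Ldha made up 98.8%, 96.8% and 98.4% of lactate dehydrogenase per length and was at 1052, 827 and 582 CPM. Aldoa made up 99.7%, 99.7% and 98.9% of aldolase, and Slc2a1 (GLUT1) 97.2%, 92.3% and 94.8% of the 4 glucose transporters compared. Pfkp held a smaller part, 67.0%, 73.4% and 80.6% of phosphofructokinase. Hexokinase was shared: Hk2 held 42.5%, 51.5% and 69.6% and Hk1 57.1%, 48.5% and 30.1%. Gapdh was at 726, 561 and 328 CPM and Pkm2, the pyruvate kinase gene Pkm, at 686, 611 and 291 CPM. Among the 21 expressed genes of the glycolysis list, 17 (81.0%) were lowest in replicate 4, against 41.3% of all expressed symbols. The summed level was 4590, 3941 and 2722 CPM. In replicate 4 the shortest length bin stood at a median log2 level of -0.22 against the others, and the longest at 0.06. The part of length in this count was not tested. Several glycolysis genes have processed pseudogenes, and reads without a unique place were not counted. For Pgk1 (293, 319 and 275 CPM) 68.0% of the 50-base stretches of its transcripts also occur elsewhere in the annotation, for Pgam1 41.5%, and for Eno1 72.2%. Eno1, listed at 1.40, 2.31 and 0 CPM, cannot be read as the level of enolase.

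Mitochondrial genes of the nucleus were broadly expressed. The list of respiratory chain and ATP synthase subunits had 47 of 50 members expressed (94.0%, against 50.0% of protein-coding genes). It was led by Atp5b at 2071, 1550 and 1640 CPM (rank 31). Of the 47, 31 (66.0%) were highest in replicate 3, against 32.2% of all expressed symbols. In that library the shortest of the 5 length bins stood at a median log2 level of 0.23 against the others, and the part of length in this count was not tested. Enzymes of pyruvate entry and the TCA cycle had 31 of 34 expressed (91.2%), with similar sums in the libraries (1902, 1915 and 1765 CPM). Sdha was the highest of them per length, at 219, 229 and 187 CPM. Pcx, which refills the cycle from pyruvate, was near the threshold at 4.10, 2.39 and 1.85 CPM. Among glutamine genes, Glud1, which feeds glutamate into the cycle, was at 590, 391 and 363 CPM and the transporter Slc38a2 at 987, 707 and 650 CPM. Gls2, the liver-type glutaminase, had 0.466, 0 and 0.427 CPM. No gene of the mitochondrial genome is among the symbols analysed.

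Lipid genes split by isozyme as well. For fatty acid oxidation, the liver-type Cpt1a was at 287, 389 and 205 CPM, and Cpt1b and Cpt1c stayed under 1 CPM in all 3 libraries. Acadm was at 257, 442 and 389 CPM. The elongase Elovl5 had the highest mean per length of the lipid genes, at 445, 317 and 266 CPM. In the lipid list 15 of 41 expressed genes (36.6%) were highest in replicate 4, near the 33.9% of all expressed symbols. In the same library 19 (46.3%) were lowest, against 41.3%, and the list summed to 2468, 2692 and 2450 CPM. The cholesterol genes Sqle (30.1, 49.8 and 100 CPM), Fdft1 (37.1, 41.6 and 83.5 CPM) and Hmgcs1 (40.8, 46.4 and 85.3 CPM) were among those highest in replicate 4. These 3 are targets of SREBP2 and were named after their values were seen. Srebf2 itself was at 113, 120 and 42.4 CPM.

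The 20 most abundant protein-coding genes per length included cytoskeletal, MHC, translation and calcium-binding genes. The symbol Gm20594 was first in each library, at 49353, 32699 and 25627 RPKM. Its annotated sequence of 449 bases matches the mitochondrial ribosomal RNA mt-Rnr2 over 439 aligned bases with 88.4% identity, and whether its reads come from that RNA was not tested. B2m, the light chain of class I MHC, was second in each library with 9641, 9235 and 10045 CPM (CV 4.20%). Tmsb4x, which binds actin monomers, Il2ra, the tetraspanin Cd53 and Actb came next, with means of 1108 to 1779 RPKM. Serinc3, Mki67, Calm2, Tpm4, Srgn, Tpt1, Vim, H2-K1, Actg1, Ly6a, Lars2, Eef1a1, S100a11 and Hmgb2 completed the first 20, down to 530 RPKM. Of the 19 neighbouring pairs in this order, 17 had overlapping ranges, all except Gm20594 over B2m and B2m over Tmsb4x. Actb was at 3572, 3670 and 1661 CPM, and Lars2, at 479, 904 and 302 RPKM, had a CV of 55.1%.

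**Figure D4:**
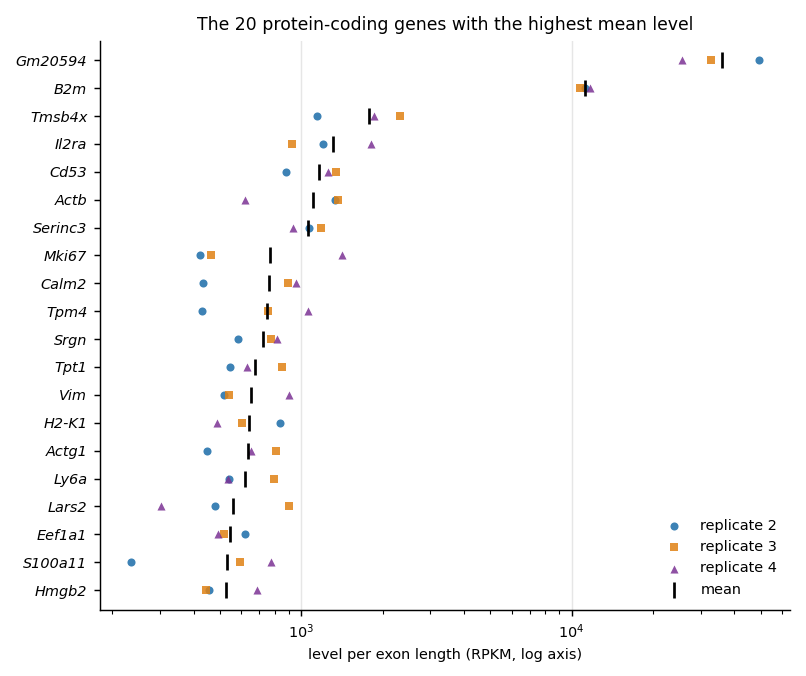
Levels per exon length in RPKM (log axis) of the 20 protein-coding genes with the highest mean; points are the 3 control-mimic libraries and black bars their means. Gm20594 (25627 to 49353 RPKM) and B2m (10738 to 11680 RPKM) stand clear of the rest, whose ranges overlap along the order.

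Non-coding RNA took a changing share. Rn45s, the ribosomal RNA precursor, held 4.41%, 2.25% and 0.300% of the gene reads. The nuclear RNA Malat1 was at 10533, 15610 and 22138 CPM and Kcnq1ot1, an imprinted antisense RNA, at 1027, 1171 and 3890 CPM. Both were highest in replicate 4, as were the pseudogene Gm17821 (1011, 1030 and 2832 CPM) and, far more, Xist. A130040M12Rik, a symbol with no match in the annotation, was even at 10457, 11834 and 10719 CPM. These genes were named after their values were seen.

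Of 21 genes of microRNA production and action, 20 were expressed (95.2%, against 50.0% of protein-coding genes). The nuclease genes Drosha and Dicer1 were at 20.1, 35.2 and 47.0 CPM and at 247, 194 and 248 CPM. Eif2c2, which encodes AGO2, was at 1092, 919 and 900 CPM and exceeded Eif2c1 (AGO1) by 19.9, 16.3 and 21.8 times per length. The helicase Ddx5, a cofactor of Drosha, was at 1142, 1367 and 1053 CPM. The scaffold gene Tnrc6b was at 1192, 1046 and 1108 CPM. The median CV of the expressed members was 13.6%, against 24.0% and 21.4% in the 4743 and 1081 protein-coding genes of intermediate and highest level, and Drosha varied more (CV 39.5%).

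Reads also fell on some microRNA hairpin genes, although these were sequenced as long RNA. Of 643 such symbols, 166 had a read and 18 reached 1 CPM in all 3 libraries (2.80%, against 46.0% of all symbols). The deletion of Dgcr8 cannot be set against a control here. Mir142, a blood cell microRNA, had 332, 75 and 80 reads (31.0, 6.41 and 11.4 CPM), and Mir155, which activated T cells induce, 44, 48 and 181 reads (4.10, 4.10 and 25.8 CPM). Mir29a was at 8.67, 9.23 and 15.2 CPM and its neighbour on chromosome 6, Mir29b-1, at 8.86, 9.48 and 9.97 CPM. Mir16-1 (8.49, 10.5 and 8.69 CPM) and Mir15a (3.26, 6.24 and 7.98 CPM) lie together on chromosome 14 within Dleu2 (41.7, 38.9 and 52.6 CPM). Mir301 was at 18.8, 6.32 and 12.1 CPM and Mir103-2 at 5.50, 5.21 and 14.1 CPM. The host transcript Mir17hg, which carries the miR-17-92 cluster, was at 94.0, 99.8 and 118 CPM. Such reads can come from a primary or host transcript or from the hairpin, and the mature form is not measured. The hairpin genes of the mimics given to the other groups were low: Mir23a was at 1.49, 0.0854 and 0 CPM, Mir27a at 0.933, 0 and 0.142 CPM and Mir24-2 at 0.373, 0 and 0 CPM. Mature RNAs that 8 of these loci are known to give are shown because microRNAs with the same seed share targets. The 8 were chosen after their values were seen, from the 10 highest hairpin genes. The other two, Mir3064 (10.4, 11.6 and 6.12 CPM) and Mir1954 (5.50, 6.06 and 6.27 CPM), are not printed. They are printed 5′ to 3′ from RefSeq (GRCm38.p6), with the seed, bases 2 to 8, in capitals.
miR-142a-3p: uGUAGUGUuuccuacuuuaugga
miR-155-5p: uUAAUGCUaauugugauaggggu
miR-29a-3p: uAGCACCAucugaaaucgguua
miR-29b-3p: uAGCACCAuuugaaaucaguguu
miR-16-5p: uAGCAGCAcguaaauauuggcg
miR-15a-5p: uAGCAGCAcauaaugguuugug
miR-301a-3p: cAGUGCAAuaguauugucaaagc
miR-103-3p: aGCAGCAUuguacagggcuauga
The RNAs of both Mir29 loci carry the seed AGCACCA, and those of Mir16-1 and Mir15a the seed AGCAGCA, while the other 4 seeds occur once each in this set.

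Transcripts of the interferon response list had a median of 4.49 CPM. Of 32 measured genes, 21 were expressed (65.6%, against 50.0% of protein-coding genes). The sum (3779, 2537 and 1931 CPM) was led by Ly6e (1979, 1344 and 684 CPM). Isg15 (1.96, 4.01 and 5.13 CPM), Ifit1 (3.26, 4.61 and 4.99 CPM) and Mx1 (4.20, 5.98 and 2.99 CPM), which interferon strongly induces, were near the threshold. Chaperones were abundant, with Pdia3 at 1204, 1280 and 2496 CPM and Hsp90b1 at 1887, 1634 and 1986 CPM. The heat-inducible Hspa1a had 0, 3.59 and 0.712 CPM, though 60.4% of its 50-base stretches also occur elsewhere.

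The spread between libraries exceeded counting error for most genes. The coefficient of variation (CV) over the 3 libraries had a median of 28.1% among 10130 expressed protein-coding genes, where counting alone gives 6.29%. For 3683 of them (36.4%) the highest library was at least 2-fold above the lowest, and for 608 (6.00%) at least 4-fold. In the 1081 most abundant of them, for which counting gives 1.77%, the median CV was 21.4%. edgeR's common dispersion corresponds to a biological coefficient of variation of 0.374 over 10880 genes.

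Of 5827 protein-coding genes with a mean of at least 20 CPM, the 12 with the largest CV drew on different libraries. Eomes (CV 148%) and H2-DMa (126%) were highest in replicate 2. Mt1, a metal-binding metallothionein (2.24, 55.7 and 4.42 CPM), Ext2, a heparan sulfate enzyme (23.3, 209 and 7.12 CPM), Car2, a carbonic anhydrase (5.22, 58.3 and 3.28 CPM), Jun, Rgs1, the linker histone gene Hist1h1c (48.1, 317 and 70.1 CPM) and Peg10 (4.48, 680 and 205 CPM) were highest in replicate 3. Dgkk (6.90, 30.9 and 128 CPM), Spef2 (70.8, 55.7 and 403 CPM) and Hmgn5 (20.8, 37.2 and 172 CPM) were highest in replicate 4. Peg10, an imprinted gene of retroviral origin, had the widest range of them, 152-fold between replicates 3 and 2.

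At the other end, the 8 genes of that level with the smallest CV were below 1%, less than counting alone gives for their depth. They are the lowest of 5827 values, each over 3 libraries, so the choice itself favours close values. Whether these genes are steadily expressed was not tested. Gsk3b, a kinase of insulin and Wnt signalling, was at 400, 401 and 397 CPM, and Aebp2, a partner of the Polycomb complex PRC2, at 966, 951 and 959 CPM. Ireb2, which senses iron, was at 155, 152 and 154 CPM. Hiatl1, Plekha3, 2700078E11Rik, Sfmbt1 and Dgke were the others, with CVs of 0.240% to 0.946%.

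**Figure D5:**
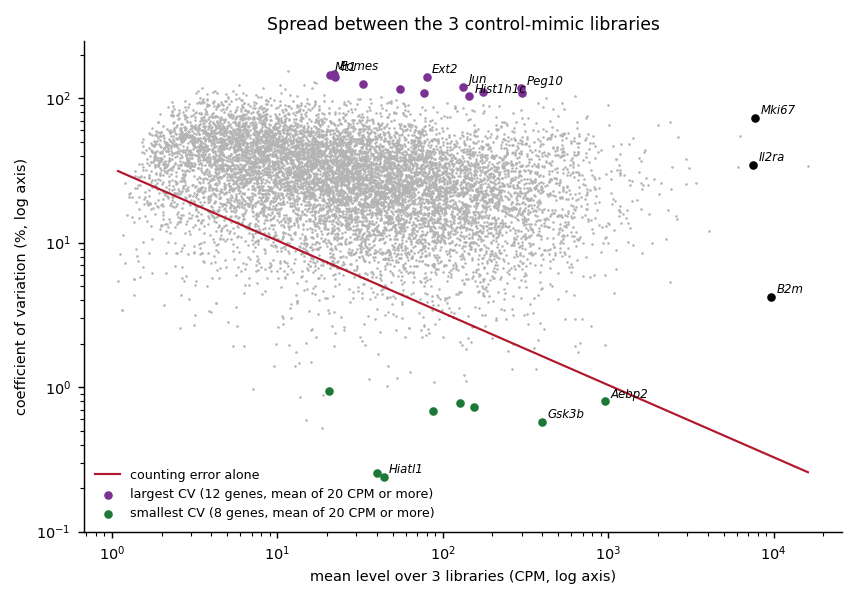
Coefficient of variation over the 3 control-mimic libraries (%, log axis) against mean level (CPM, log axis) for 10130 expressed protein-coding genes (grey); the red line is counting error alone, coloured points are the 12 largest and 8 smallest values among genes of at least 20 CPM, and black points are 3 abundant genes. Most genes lie above the line, and B2m (4.20%), Il2ra (34.6%) and Mki67 (73.2%) differ widely in spread at similar levels.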

How the data were processed

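Total RNA was sequenced as cDNA from sorted CD4+ T cells. Per the labels' protocols, 1 ng of total RNA was amplified (a NuGEN low-input kit) and sequenced from 1 end as 50-nt reads, 4 libraries per lane. The authors deposited raw read counts per gene symbol, 1 table per library. Alignment tools (TopHat, Bowtie2), the package DESeq and the build mm10 appear in the submitters' processing notes. The counter, its annotation and its strand setting are not given in the sources used here, so a gene and an antisense partner cannot be told apart. The 5 closing summary lines (70.2% to 77.6% of all reads, mostly reads without a gene or without a unique place) were left out.

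The 3 control libraries were scaled by TMM (edgeR 4.0.16, R 4.3.3; factors 1.006, 1.03 and 0.9653). Symbols were matched to GENCODE M21 (GRCm38, the assembly of mm10): 20953 directly, 1879 through an older symbol, 469 not at all, and 36 repeated matches were dropped. RPKM is CPM per kilobase of merged exons. Uniqueness is the share of a gene's 50-base transcript stretches found at another annotated place, for genes with at least 10 reads. mt-Rnr2 was matched with blastn 2.17.0. The scaling and dispersion step was tested on simulated data. No test was made, since 1 group is described. Members and the 62 gene lists (1260 entries, some in several lists) were chosen with earlier results of these data known. Named genes are list members, the 20 highest by RPKM, the 12 largest and 8 smallest CVs, and the markers; others are marked as named after their values were seen. Results for a few genes are not reported here.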

Additional observations from a re-analysis of the deposited data

How the results depend on the processing

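The values describe 3 libraries, so each mean rests on few samples, and reads without a unique place were not counted. At least 1 CPM in each library was reached by 10745 symbols, by 11595 at 0.5 CPM and 8143 at 5 CPM, by 10745 with no scaling factor and by 10803 with DESeq2 size factors or with Rn45s left out of the total. Leaving out 1 control library in turn gave 11034 to 11124. Adding control replicate 1 gave 7094, since a gene without a read among 51474 then drops out. The 5 lineage lists held 44, 38, 18, 18 and 13 measured members, and a gene in several lists counts in each. Together 89 were expressed, where 46.0% of all 23337 symbols were, and 76 to 102 under every alternative run. The 76 came with control replicate 1 added, where 7094 of all symbols were expressed. The 102 came with the threshold in replicate 3 alone, which 11832 of all symbols reached. The biological coefficient of variation was 0.374, 0.377 with no scaling factor, 0.333 with control replicate 1, 0.463 with no filter on low counts, and 0.332 to 0.405 without 1 control library. The median CV of 28.1% became 33.1% with control replicate 1 and 19.03% to 26.8% without 1 control library, lowest without replicate 4. At the same spread a median CV over fewer libraries comes out lower, so these values are not directly comparable with 28.1%. The 100 most abundant genes held 24.9% of gene reads, and 23.2% with Rn45s left out. Of the 20 highest genes by RPKM, 17 to 20 remained among the first 20 under other scalings, with control replicate 1, with libraries left out or with the longest transcript as length. With the length restricted to 50-base stretches found at no other annotated place, an alternative chosen after seeing the data, 13 remained, and Kpna2, H2afz, Ftl1 and the ribosomal protein genes Rpl24, Rpl23a, Rps4x and Rpl19 entered. The same restriction over a whole genome was not run, since no genome sequence was used. Of the mean levels of 17 named genes, that of Ccr7 went from 423 to 177 CPM without replicate 2, that of Mki67 from 7734 to 4547 CPM without replicate 4 and that of Penk from 403 to 249 CPM without replicate 3. With control replicate 1 added, Dgcr8 went from 36.4 to 57.5 CPM and Cd4 from 524 to 568 CPM. The other levels followed moved by less than 1.5 times. No paired analysis was possible because no result comes from a test between groups.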
